A study of Mus musculus with 7 samples.

Results

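The genes described here handle the uptake, storage and export of iron, and their mRNA was measured in retinal pigment epithelium (RPE) of aged wild type (WT) and *LC3b-/-* mice. The 10 genes were taken by symbol: *Tfrc*, *Trf*, *Fth1*, *Ftl1*, *Slc40a1*, *Slc11a2*, *Cp*, *Heph*, *Hmox1* and *Ncoa4*. All 10 were found among the 52740 Ensembl identifiers of the count table, and all 10 passed the filter on low counts. The 4 WT libraries (F1, F2, F3 and M1) came from C57BL6/J mice and the 3 *LC3b-/-* libraries (F1, F3 and M) from mice of the Jackson line carrying the Mrab null allele of *Map1lc3b* on a B6;129P2 background. F and M stand for female and male. Every mouse was labelled 24 months old, and each library came from 1 mouse. The genotype label of the knockout libraries is spelled LCb-/-. The line lacks the gene in every tissue, and its strain background and a number in the sample names that the genotypes never share cannot be told apart from the genotype. RPE sheets were released enzymatically from the posterior eye cup after the neural retina had been pulled away, and polyadenylated RNA was sequenced with strand kept. Values per library are given below in the order F1, F2, F3, M1 for WT and F1, F3, M for *LC3b-/-*. The p-values measure the spread between these mice.

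Iron travels in plasma and in the fluid around the retina bound to transferrin, the product of *Trf*, and enters cells with the transferrin receptor (*Tfrc*). DMT1 (*Slc11a2*) moves ferrous iron out of the endosome into the cytosol. Surplus iron is held in ferritin, a shell of heavy (*Fth1*) and light (*Ftl1*) chains, and NCOA4 carries ferritin to the autophagosome so that its iron can be recovered, a route that runs on the autophagy machinery to which LC3b belongs. Ferroportin (*Slc40a1*) is the only known iron exporter of vertebrate cells and works with a copper ferroxidase, ceruloplasmin (*Cp*) or hephaestin (*Heph*). Heme oxygenase 1 (*Hmox1*) releases iron from heme. RPE takes up shed photoreceptor outer segments daily, holds iron in melanin as well as in ferritin, and lies between the choroidal blood and the retina. Mice without ceruloplasmin and hephaestin are known for iron accumulation in RPE.

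Some of these transcripts carry iron-responsive elements, short hairpins in the untranslated region (UTR) that bind the iron regulatory proteins when iron is scarce. Bound in the 5' UTR they hold back translation, and bound in the 3' UTR of *Tfrc* they protect the mRNA from decay. The mRNA level of *Tfrc* therefore runs opposite to iron supply, whereas that of the ferritin chains can stay the same while their protein changes. The sequences below are the elements that a search found in the UTRs of these genes, each shown as 29 bases of the GENCODE vM39 transcript, 5' to 3' with T for U. Capitals mark the unpaired C and the loop of 6 bases that the regulatory proteins contact. The search took the pattern CNNNNNCAGTGN followed by 5 bases that pair with the 5 before the loop (G with T allowed), on the transcribed strand, and at least 4 of 6 possible pairs in the outer stem.
*Fth1* 5' UTR, chr19:9960096-9960124, plus strand: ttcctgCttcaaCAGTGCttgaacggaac
*Ftl1* 5' UTR, chr7:45109203-45109231, minus strand: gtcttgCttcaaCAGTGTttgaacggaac
*Slc40a1* 5' UTR, chr1:45964625-45964653, minus strand: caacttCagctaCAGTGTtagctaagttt
*Tfrc* 3' UTR, chr16:32450037-32450065, plus strand: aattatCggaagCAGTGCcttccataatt
*Tfrc* 3' UTR, chr16:32450416-32450444, plus strand: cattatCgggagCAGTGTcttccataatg
*Tfrc* 3' UTR, chr16:32450481-32450509, plus strand: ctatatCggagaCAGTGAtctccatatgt
*Tfrc* 3' UTR, chr16:32450528-32450556, plus strand: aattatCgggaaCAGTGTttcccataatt

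Coordinates are on GRCm39, the build of the count table. A match to this pattern was present in a UTR of the canonical transcript of 28 of 21770 protein-coding genes (0.129%), 8 of them in the 5' UTR. No transcript of *Slc11a2* (34 searched), *Trf*, *Cp*, *Heph*, *Hmox1* or *Ncoa4* held an element in this exact form. The count table gives 1 value per gene, so isoforms with and without an element were not told apart.

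Counts summed to 24495952 to 34819720 in the WT libraries and to 26704461 to 35616134 in the *LC3b-/-* libraries. *Map1lc3b* itself had 2778 to 4444 counts in WT and 168 to 332 in *LC3b-/-*, low in every library labelled as a knockout (log2 fold change −3.98, edgeR adjusted p = 1.86e-04). Levels are given as CPM, counts per 1000000 on the TMM scale, which adjusts library totals for composition. Of 12 RPE markers *Best1*, which defines mature RPE, lay at only 0.861 to 1.71 CPM, and the others were at 41.3 CPM (*Mitf*) or more in every library. In *LC3b-/-* 11 of the 12 were lower on average, 9 with an unadjusted p under 0.05 and none called. Such a p was found for 24.1% of all genes tested, with 10.6% lower in *LC3b-/-*. Summed, the RPE markers ran from 33421 to 52467 CPM in WT and from 14781 to 31158 CPM in *LC3b-/-*, so the groups did not overlap. Summed endothelial markers ran from 418 to 1305 CPM in WT and from 1467 to 1790 CPM in *LC3b-/-*, also without overlap, and ocular surface markers from 9.92 to 2461 CPM and from 3426 to 24307 CPM. Among single genes, every *LC3b-/-* library lay above every WT library in 12.0% and below in 10.3%. Photoreceptor markers ranged from 274 to 20568 CPM in WT and from 95.3 to 7015 CPM in *LC3b-/-*. In such bulk samples fewer cells of a type and less RNA per cell cannot be told apart, and the part of these markers in the results below was not tested.

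None of the 10 iron genes passed edgeR's quasi-likelihood test between the genotypes. A call needed an adjusted p under 0.05 together with a difference of 1.5-fold or more. Of all 16990 genes tested, 40 met both (0.235%). Before adjustment *Hmox1* alone had a p under 0.05, and it was higher in *LC3b-/-*. Over all genes 24.1% had such a p, 13.5% higher and 10.6% lower, so 1 of 10 is no more than the background. DESeq2's Wald test, which called 9.80% of the genes it adjusted, called none of the 10 either. The fold changes of *LC3b-/-* over WT were above 0 on the log2 scale for 4 genes (*Hmox1*, *Slc40a1*, *Cp* and *Slc11a2*) and below 0 for 6, with a median of −0.12 against 0.01 over all genes. *Hmox1* was also the only member in which every *LC3b-/-* library lay above every WT library, as 12.0% of all genes did. In none did every *LC3b-/-* library lie below, where 10.3% of all genes did.

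**Figure D1:**
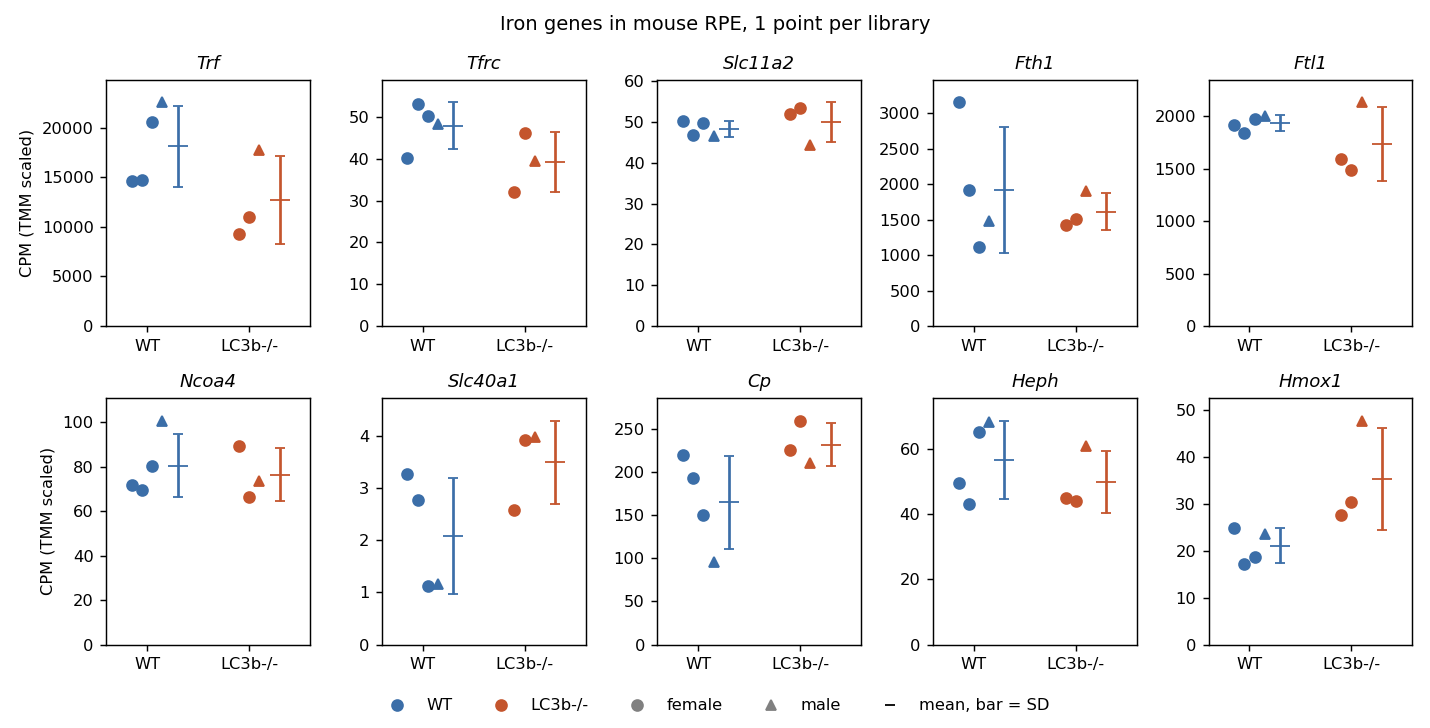
CPM on the TMM scale (y axis, from 0) of the 10 iron genes in the 4 WT and 3 *LC3b-/-* libraries, with circles for females, triangles for males, and the mean with its SD at the right of each group. *Hmox1* is the one panel in which the groups do not overlap (at most 24.8 CPM in WT, at least 27.5 CPM in *LC3b-/-*).

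Levels of different genes were compared per kilobase of the canonical transcript. In WT *Trf* stood highest at 7048 ± 1589 CPM per kilobase (SD, n = 4), followed by the ferritin chains *Fth1* (2064 ± 956) and *Ftl1* (1998 ± 77.0), which did not differ beyond their spread. *Cp* came next at 39.7 ± 13.0 CPM per kilobase, then *Ncoa4* (18.0 ± 3.19), *Slc11a2* (16.0 ± 0.650) and *Hmox1* (13.4 ± 2.34), whose neighbours in the order overlapped. *Tfrc* (9.80 ± 1.15) and *Heph* (9.46 ± 2.02) were alike within their spread. *Slc40a1* was lowest at 0.601 ± 0.320 CPM per kilobase. In *LC3b-/-* the order was *Trf* (4931 ± 1732, n = 3), *Ftl1* (1793 ± 360), *Fth1* (1736 ± 275), *Cp* (55.9 ± 6.10), *Hmox1* (22.4 ± 6.94), *Ncoa4* (17.0 ± 2.64), *Slc11a2* (16.5 ± 1.63), *Heph* (8.34 ± 1.59), *Tfrc* (8.02 ± 1.46) and *Slc40a1* (1.01 ± 0.231). The order thus differed only among genes that were within their spread. This includes *Hmox1*, which overlapped *Ncoa4* and *Slc11a2* in *LC3b-/-* as well. *Trf* ranked between 2 and 12 by abundance in the libraries and took 0.865% to 2.20% of all counts. *Slc40a1* ranked between 12168 and 13924.

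*Trf* (ENSMUSG00000032554, chromosome 9, 103081200 to 103107814) encodes transferrin, the iron carrier that RPE secretes. Its level was 14631, 14672, 20601 and 22574 CPM in WT. The *LC3b-/-* libraries held 9304, 11003 and 17725 CPM. The 2 *LC3b-/-* females were below every WT library, while the male lay inside the WT range and below the WT male. For *Trf* the log2 fold change was −0.52 (95% interval −1.36 to 0.33, edgeR adjusted p = 0.412). Its CPM equalled 43.0% to 49.9% of the summed RPE marker CPM in WT and 56.9% to 63.1% in *LC3b-/-*. As a share of these markers it was therefore higher in each *LC3b-/-* library than in any WT library, while its CPM was lower on average. The summed markers alone already separated the genotypes, so a gene that fell less than they did tends to a higher share. Shares of other genes were not computed, so nothing particular to *Trf* can be read from this. The part of the lower RPE markers in the *Trf* values was not tested. The log2 fold changes of the 12 markers themselves had *Lrat* at the low end (−1.58) and *Best1* at the high end (0.19), with *Ttr* at −0.73 and *Mitf* at −0.31 the ones nearest to that of *Trf*.

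*Tfrc* (ENSMUSG00000022797, chromosome 16, 32427556 to 32451612), the receptor that takes up transferrin-bound iron, had 40.1, 53.2, 50.4 and 48.3 CPM in WT. In *LC3b-/-* it had 32.0, 46.2 and 39.5 CPM. Only WT F1 fell among the *LC3b-/-* values, and the log2 fold change was −0.29 (95% interval −0.66 to 0.08, edgeR adjusted p = 0.307). This is the member whose 3' UTR held 4 of the elements printed above. *Slc11a2* (ENSMUSG00000023030, chromosome 15, 100285776 to 100322953), the endosomal iron transporter, had the fold change nearest to 0 of the 10. Its WT libraries held 50.2, 46.7, 49.8 and 46.5 CPM and its *LC3b-/-* libraries 52.0, 53.5 and 44.3 CPM, so that the *LC3b-/-* values enclosed those of WT. The log2 fold change of *Slc11a2* was 0.05 with a 95% interval from −0.20 to 0.29 (adjusted p = 0.811), so a 1.5-fold change in either direction lay outside it.

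**Figure D2:**
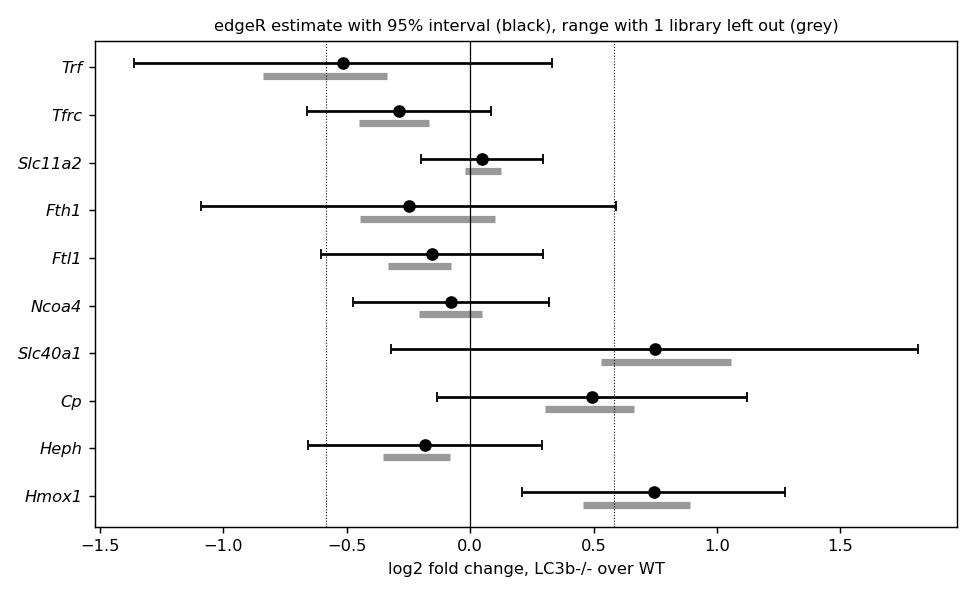
Log2 fold change of *LC3b-/-* over WT (x axis) for each iron gene, as the edgeR estimate with its 95% interval (black) and the range of estimates with 1 library left out (grey); dotted lines mark a 1.5-fold change. Only the interval of *Hmox1* (0.21 to 1.28) lies wholly on one side of 0, and only the intervals of *Slc11a2* and *Ncoa4* stay within the dotted lines.

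Transcripts of the ferritin chains were more abundant than those of every other member but *Trf*. *Fth1* (ENSMUSG00000024661, chromosome 19, 9957911 to 9962462), the chain that oxidizes ferrous iron on entry, had 3155, 1919, 1120.5 and 1473 CPM in WT. In *LC3b-/-* it had 1426, 1508 and 1904 CPM. WT F1 was the highest and WT F3 the lowest library, with all *LC3b-/-* values between them. The log2 fold change of *Fth1* was −0.25 (95% interval −1.09 to 0.59, edgeR adjusted p = 0.704) and turned to 0.10 without WT F1. Markers of oligodendrocytes and Schwann cells followed the same order among the WT libraries: summed they reached 5866 CPM in F1, 2302 CPM in F2, 814 CPM in M1 and 120 CPM in F3. They were at 218, 148 and 63.5 CPM in *LC3b-/-*, where *Fth1* did not follow them. *Mog*, which defines oligodendrocytes, was at 15.3, 1.28, 0 and 1.96 CPM in WT and at 0 in all 3 *LC3b-/-* libraries. The part of these cells in the *Fth1* values was not tested.

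*Ftl1* (ENSMUSG00000050708, chromosome 7, 45107367 to 45109308), the light chain that helps to lay down the iron core, was level within WT, with 1921, 1838, 1977 and 2007 CPM. The *LC3b-/-* females were lower than each of these, at 1591 CPM (F1) and 1486 CPM (F3), and the *LC3b-/-* male was higher than each, at 2136 CPM. The log2 fold change of *Ftl1* was −0.16 (95% interval −0.61 to 0.29, adjusted p = 0.652). Its 7 near-identical copies on the same strand, such as *Ftl1-ps1*, together held 0.877% as many counts as *Ftl1*, so reads placed on them had little weight. *Ncoa4* (ENSMUSG00000056234, chromosome 14, 31881822 to 31902234), the receptor that brings ferritin to autophagy, had 71.6, 69.4, 80.4 and 101 CPM in WT. In *LC3b-/-* its level was 89.4, 66.3 and 73.6 CPM. The *Ncoa4* groups overlapped widely, with a log2 fold change of −0.08 (95% interval −0.47 to 0.32, adjusted p = 0.814).

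*Slc40a1* (ENSMUSG00000025993, chromosome 1, 45947211 to 45965683), the exporter ferroportin, was the least abundant member and the least precisely measured. It had 112, 67, 30 and 30 counts in WT and 64, 157 and 135 counts in *LC3b-/-*. On the CPM scale these were 3.28, 2.78, 1.12 and 1.15 in WT and 2.58, 3.94 and 3.99 in *LC3b-/-*. WT F3 and M1 lay well below the other libraries, while *LC3b-/-* F1 was within the WT range. Its log2 fold change was 0.75, the largest of the 10 together with that of *Hmox1*, with a 95% interval from −0.32 to 1.82 (edgeR adjusted p = 0.350).

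The ferroxidases went in different directions on average, without a called change in either. *Cp* (ENSMUSG00000003617, chromosome 3, 20011090 to 20063930) had 220.1, 193, 151 and 96.3 CPM in WT against 226, 260.0 and 210.3 CPM in *LC3b-/-*. The groups overlapped, since WT F1 exceeded the *LC3b-/-* male. Within females *LC3b-/-* lay above WT by a small margin (at least 226 against at most 220.1 CPM), and the *LC3b-/-* male was above the WT male. How many of all genes separate in this way within each sex was not counted. The log2 fold change of *Cp* was 0.49 (95% interval −0.13 to 1.12, edgeR adjusted p = 0.302), and over the alternatives it ran from 0.30 without WT M1 (adjusted p = 0.429) to 0.66 without WT F1 (adjusted p = 0.162). It was 0.37 in females alone (adjusted p = 0.366) and 0.60 with sex as a covariate (adjusted p = 0.129). *Cp* took the same order as the summed endothelial markers in the WT libraries, which were 1305, 1187, 530 and 418 CPM. In *LC3b-/-* these markers were at 1718, 1790 and 1467 CPM, again in the order of *Cp*, and their part in the *Cp* values was not tested. *Heph* (ENSMUSG00000031209, chromosome X, 95498965 to 95621010), the membrane-bound ferroxidase, had 49.7, 43.2, 65.1 and 68.4 CPM in WT and 44.8, 44.0 and 60.8 CPM in *LC3b-/-*. All 3 *LC3b-/-* values fell inside the WT range, with a log2 fold change of −0.18 (95% interval −0.66 to 0.29, adjusted p = 0.612).

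*Hmox1* (ENSMUSG00000005413, chromosome 8, 75820241 to 75827217), which opens the heme ring and frees its iron, had 24.8, 17.2, 18.7 and 23.6 CPM in WT. In *LC3b-/-* it had 27.5, 30.5 and 47.8 CPM. Each *LC3b-/-* library exceeded each WT library, in females (at most 24.8 against at least 27.5 CPM) as in males (23.6 against 47.8 CPM). On the log2 scale the difference was 0.74 (standard error 0.23, 95% interval 0.21 to 1.28), a 1.67-fold difference, with an unadjusted p of 0.0126 and an adjusted p of 0.125 with edgeR. Without *LC3b-/-* M the log2 fold change was 0.46 (adjusted p = 0.187). That male also had the highest sum of macrophage and microglia markers, 1385 CPM against 595 to 777 CPM in WT and 624 and 864 CPM in *LC3b-/-* F1 and F3. Most of that sum was *Lyz2*, at 849 CPM in the male against 197 to 292 CPM in WT. *Csf1r*, the next largest there, was at 260 CPM, inside the WT range of 208 to 317 CPM. The high sum therefore does not show that this library held the most macrophages. Of these 12 markers 6 were higher and 6 lower in *LC3b-/-*. *Lyz2* (log2 fold change 1.21) and *Cd68* (1.03) had an unadjusted p under 0.05, while the C1q genes ran from −0.45 to −0.14 on that scale. *LC3b-/-* F1 had a lower sum of macrophage markers than 3 of the WT libraries and more *Hmox1* than all 4. The part of these cells in the *Hmox1* values was not tested.

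**Figure D3:**
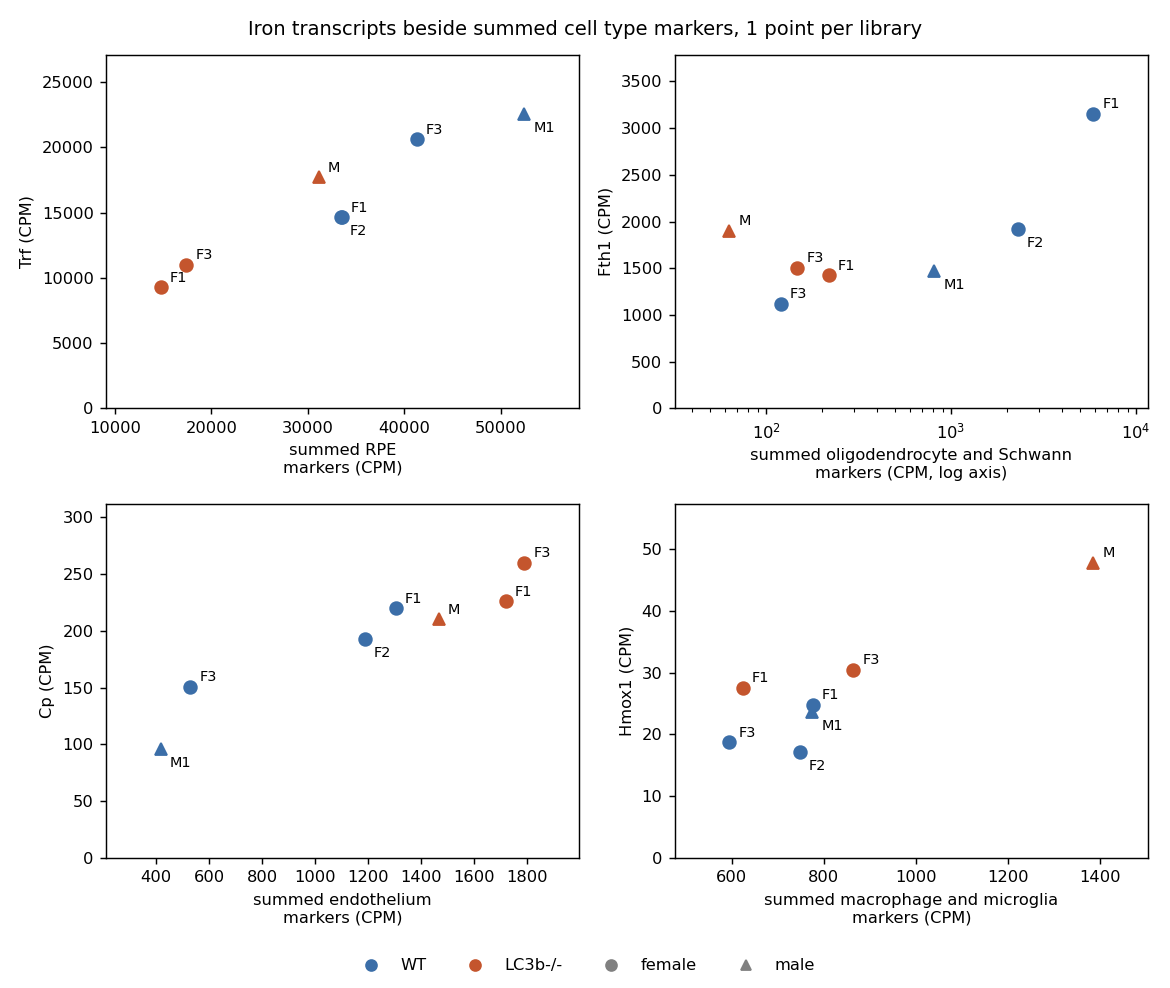
Level of an iron gene (y axis, CPM from 0) against the summed CPM of a marker list (x axis, logarithmic for oligodendrocyte and Schwann cell markers) in each library: *Trf* with RPE, *Fth1* with oligodendrocyte and Schwann cell, *Cp* with endothelial, and *Hmox1* with macrophage and microglia markers. *Cp* takes the order of its markers within each genotype, *Fth1* is highest in WT F1, which holds 5866 CPM of the markers beside it, and *Hmox1* is highest in *LC3b-/-* M.

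Ratios within a library do not depend on its scaling, and 3 of them were compared with exact two-sided permutation tests over the 35 ways to divide 7 libraries, in which p cannot be below 0.0286. With adjustment over the 3, a ratio that differed alone could not go below 0.0857, so the design could not call it. The ratio of *Fth1* to *Ftl1* counts, which reflects the balance of ferritin subunit mRNA, was 1.64, 1.04, 0.567 and 0.734 in WT and 0.897, 1.02 and 0.891 in *LC3b-/-*. The mean log2 ratio was −0.12 ± 0.67 in WT and −0.10 ± 0.11 in *LC3b-/-* (SD, n = 4 and 3, exact permutation p = 0.971). The *LC3b-/-* values were close together and all inside the wide WT range. The ratio of *Cp* to *Heph* counts was 4.43, 4.46, 2.32 and 1.41 in WT against 5.06, 5.91 and 3.46 in *LC3b-/-*. Both *LC3b-/-* females exceeded every WT library. The mean log2 ratio of *Cp* to *Heph* was 1.502 ± 0.80 in WT and 2.23 ± 0.40 in *LC3b-/-*, a difference of 0.73 (exact permutation p = 0.229, 0.686 adjusted over the 3 ratios). Without WT M1 the difference was 0.39. *Tfrc* against *Fth1*, uptake against storage, gave log2 ratios of −5.22 ± 0.77 in WT and −5.36 ± 0.30 in *LC3b-/-* (exact permutation p = 0.800). Over the 3 ratios the adjusted p was 0.971 for the first and the last.

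**Figure D4:**
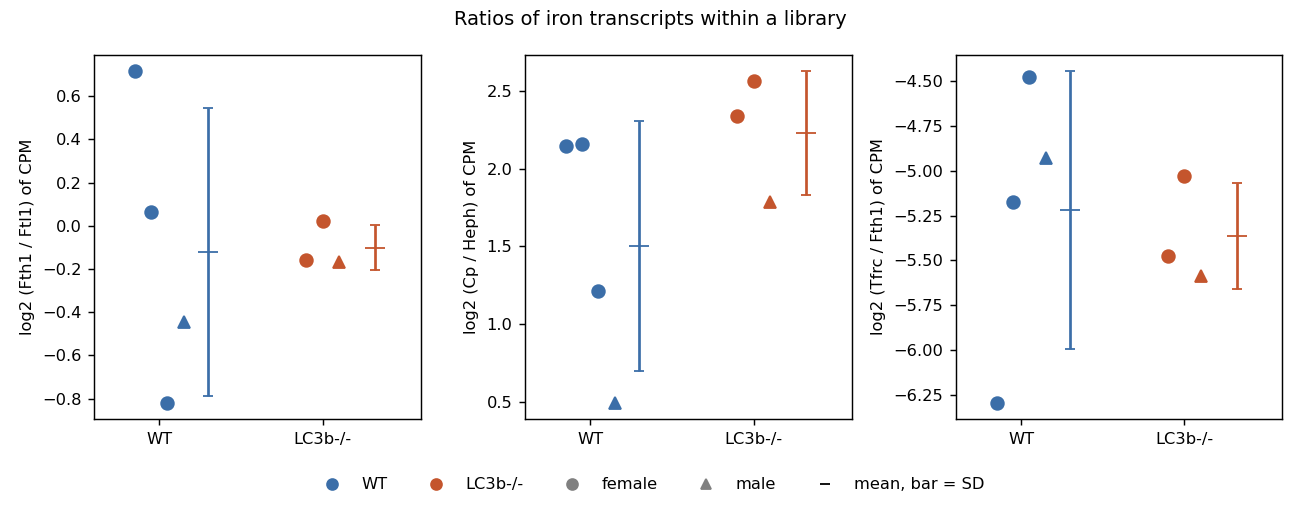
Log2 ratio of CPM (y axis) of *Fth1* to *Ftl1*, *Cp* to *Heph* and *Tfrc* to *Fth1* in each library, with circles for females, triangles for males, and the mean with its SD beside each group. The groups overlap in all 3 panels, and the WT libraries spread more widely than the *LC3b-/-* libraries.

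Genes with a match to the element pattern were set beside these members. Whether each match works as an iron-responsive element was not tested. Of the 28 genes with a match in a UTR, 26 were tested, 10 higher and 16 lower in *LC3b-/-* (median log2 fold change −0.13, against 0.01 over all genes). None was called with edgeR, and 5 of the 26 had an unadjusted p under 0.05, a smaller share than the 24.1% of all genes. Of the 8 genes with a match in the 5' UTR, *Slc40a1* and *Alas2*, the erythroid enzyme that starts heme synthesis, were above 0 and the other 6 below, among them both ferritin chains. *Alas2* (log2 fold change 0.44, edgeR adjusted p = 0.581) was chosen for mention after its value was seen.

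Another 129 genes of iron, heme and iron-sulfur handling were listed from general knowledge and grouped by role, and 124 of them were tested. In *LC3b-/-* RPE 51 were higher and 73 lower, with a median log2 fold change of −0.09. None passed with edgeR. An unadjusted p under 0.05 was found for 37 (29.8%, against 24.1% of all genes), 15 higher and 22 lower. DESeq2's Wald test called 12 (9.68%), a share near the 9.80% it called over all genes. They were *Steap4*, *Slc39a8*, *Lcn2*, *Lrp2*, *Ltf*, *Meltf*, *Cdc14a*, *Bmp2*, *Smad1*, *Bach1*, *Bola3* and *Alox15*. The calls were uneven, with 6 among the 15 genes of iron uptake and reduction. In the next paragraphs the adjusted p-values of single genes are from edgeR.

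The list of mitochondrial iron and of iron-sulfur cluster genes lay mostly below 0. It also held genes of cytosolic cluster assembly, such as *Ciao1* and *Ciapin1*, so its counts are not for mitochondria alone. Of its 31 genes tested, 27 had a lower and 4 a higher mean, with a median log2 fold change of −0.26. An unadjusted p under 0.05 was found for 10, all lower (32.3%, against 10.6% lower and 24.1% in either direction over all genes). The smallest belonged to *Bola3*, a late factor of cluster assembly, with 35.8, 36.6, 43.9 and 45.1 CPM in WT and 27.9, 23.8 and 29.7 CPM in *LC3b-/-*. This was −0.57 on the log2 scale (SE 0.14, edgeR adjusted p = 0.0967). *Isca2*, a scaffold for the larger clusters, had −0.44 (adjusted p = 0.121). In both, the highest *LC3b-/-* library was under the lowest of WT, as in 8 of the 31 (25.8%, against 10.3% over all genes). The RPE markers were lower on average in these libraries as well, and their part was not tested.

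Genes of heme synthesis stood at 6 higher and 8 lower (median −0.11, 14 tested), and 3 had an unadjusted p under 0.05, all lower (21.4%, against 10.6% lower and 24.1% in either direction over all genes). *Pgrmc1*, a heme-binding membrane protein, had a log2 fold change of −0.42 (adjusted p = 0.125) and *Alad*, which joins 2 molecules of aminolevulinic acid, −0.54 (adjusted p = 0.126). Genes of heme uptake, breakdown and export divided into 8 higher and 6 lower (median 0.20, 14 tested), with 3 of the higher and 2 of the lower at an unadjusted p under 0.05 (35.7%, against 24.1% over all genes). *Bach1*, the heme-sensing repressor of *Hmox1*, was above all WT libraries in each *LC3b-/-* library, with 35.8, 21.2, 21.6 and 26.3 CPM in WT and 66.4, 41.8 and 40.6 CPM in *LC3b-/-*. *Bach1* differed by 0.92 on the log2 scale (SE 0.25, edgeR adjusted p = 0.107), so repressor and target transcript were both higher on average. *Slc46a1*, a folate carrier that can also carry heme, had −0.56 (adjusted p = 0.159).

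Other routes of iron uptake and reduction were higher in 11 of 15 genes (median 0.43), and 7 had an unadjusted p under 0.05, 6 of them higher (46.7% in either direction, against 24.1% over all genes). The leading pair are secreted or membrane-bound relatives of transferrin. Lactoferrin (*Ltf*) was below 1 CPM in every WT library and reached 60.6 and 208 CPM in *LC3b-/-* F1 and F3, but only 0.916 CPM in *LC3b-/-* M, inside the WT range (log2 fold change 7.19, adjusted p = 0.0906). Melanotransferrin (*Meltf*) had at most 6 counts in a WT library and 118, 60 and 50 counts in *LC3b-/-* (4.04, adjusted p = 0.0906). Lactoferrin is a product of tears and neutrophils, and the ocular surface markers were at 24307 CPM in *LC3b-/-* F1, 6290 CPM in F3 and 3426 CPM in M, against 9.92 to 2461 CPM in WT. Their part in the *Ltf* and *Meltf* values was not tested.

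Among genes of the hepcidin pathway 10 of 15 were higher (median 0.16), and 3 had an unadjusted p under 0.05 (20%, against 24.1% over all genes). *Bmp2*, a ligand that induces hepcidin in liver, was lower in each *LC3b-/-* library (48.5, 49.1 and 53.2 CPM) than in any WT library (73.7, 65.7, 79.7 and 83.4 CPM), a difference of −0.59 on the log2 scale (SE 0.12, adjusted p = 0.0897). *Smad1*, which carries the signal of such ligands, was above 0 at 0.76 (adjusted p = 0.102). The iron regulatory protein system had 8 of 9 genes lower (median −0.35), led by the phosphatase *Cdc14a* (−0.77, adjusted p = 0.124) and the ubiquitin ligase subunit *Rbx1* (−0.35, adjusted p = 0.149). In that system 2 had an unadjusted p under 0.05, all lower (22.2%, against 10.6% lower and 24.1% in either direction over all genes).

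Storage and chaperone genes were lower in 4 of 6 (median −0.16), with *Wdr45*, an autophagy protein, at −0.38 (adjusted p = 0.153) and the iron chaperone *Pcbp2* at −0.35 (adjusted p = 0.228). Only *Wdr45* had an unadjusted p under 0.05 (16.7%, against 24.1% over all genes). The copper supply of the ferroxidases was lower in 5 of 6 (median −0.19), with no unadjusted p under 0.05, and had *Commd1* at −0.30 (adjusted p = 0.212) and the copper importer *Slc31a1* at −0.24 (adjusted p = 0.415). Genes that control iron-dependent lipid peroxidation were higher in 8 of 14 (median 0.08). Of these 14, 6 had an unadjusted p under 0.05, 4 higher and 2 lower (42.9%, against 24.1% over all genes). *Alox15*, a lipoxygenase, was at 167 and 94.9 CPM in *LC3b-/-* F1 and F3 but at 0.886 CPM in *LC3b-/-* M, against 0.674 to 2.49 CPM in WT (5.61, adjusted p = 0.0960). *Acsl4*, which loads polyunsaturated fatty acids for phospholipids, had a log2 fold change of 0.46 (adjusted p = 0.133).

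**Figure D5:**
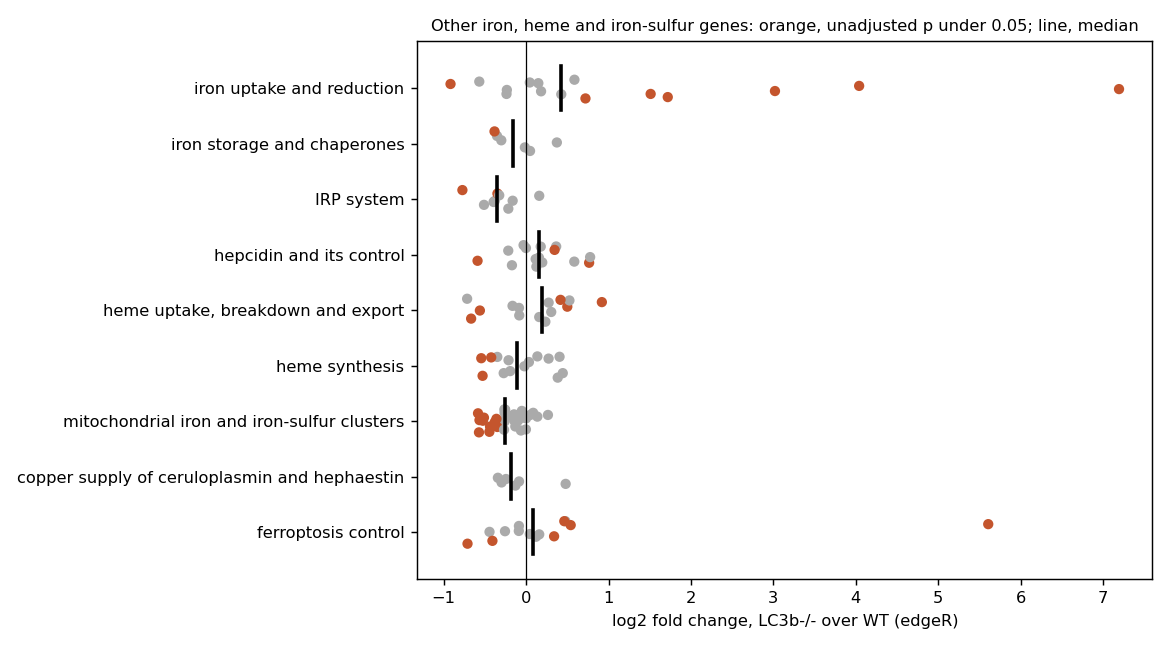
Log2 fold change of *LC3b-/-* over WT (x axis, edgeR) of the 124 further genes tested, 1 point per gene by list, with orange points for an unadjusted p under 0.05 and a line at each list's median. In the mitochondrial iron and iron-sulfur list 27 of 31 points lie below 0, while the points far to the right are *Ltf*, *Alox15* and *Meltf*, all above 4.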

How the data were processed

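RPE mRNA of 4 WT and 3 *LC3b-/-* mice was compared, 1 library each. Salmon on the GENCODE vM26 transcripts (GRCm39) and tximeta gave the estimated counts that the authors deposited, as whole numbers per gene without scaling. Salmon's options and the way of rounding are not given in the sources used here. Symbols, coordinates and canonical transcripts came from GENCODE vM39 on the same build (51721 of 52740 identifiers matched). Where a symbol had several identifiers, the protein-coding one with the largest total was taken.

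All genes were fitted together in R 4.3.3 with edgeR 4.0.16 (filterByExpr, TMM, quasi-likelihood test without covariates, Benjamini-Hochberg adjustment). The test was chosen for counts, and DESeq2 (version 1.42.0 here, also the tool of the authors) and limma 3.58.1 were alternatives. Intervals of fold changes use the test's own degrees of freedom. Log2 ratios use a prior count of 2. BLAST 2.17.0 was used to search for near-identical copies (95% identity or more, over 100 bases or more), and figures drawn with matplotlib 3.10.9. The code was tested on simulated data.

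Depth was 24495952 to 35616134 counts, so 3 counts, the most that a count of 0 allows, equal 0.0752 to 0.124 CPM on the TMM scale, covering counting error only. The members, marker lists and wider lists were chosen with earlier results of these data known, and in each wider list the 2 genes with the smallest p are named. Other alternatives were scaling, filters, sex, females only, a replicate block and leaving out each library. Values of some genes are not reported here.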

Additional observations from a re-analysis of the deposited data

Results flagged for a closer look

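Among the 4 WT libraries the summed macrophage and microglia markers stood apart in WT F3, at 595 CPM against 749 to 777 CPM in the others, a gap of 0.845 of the whole range where 0.829 is the critical value for 4 samples. *Hmox1* in that library was 18.7 CPM, within the WT range of 17.2 to 24.8 CPM. The same check of the 10 iron genes, the 3 ratios and the other marker lists found no library apart, and about 5% of such checks, of which 23 were made, mark a library by chance.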

How the results depend on the processing

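No iron gene was called under any alternative run, including DESeq2 and limma's voom. All kept their direction except *Fth1* (0.0057 with voom, −0.45 to 0.10 with 1 library left out), *Slc11a2* (−0.021 to 0.12 with 1 left out, below 0 without *LC3b-/-* F3) and *Ncoa4* (0.073 in females, 0.020 with the replicate block, −0.21 to 0.048 with 1 left out). The adjusted p of *Hmox1* ran from 0.0546 (DESeq2) to 0.443 (replicate block). Iron genes with an unadjusted p under 0.05 numbered 2 with voom (*Slc40a1*, *Hmox1*), 3 with sex as a covariate (*Trf*, *Cp*, *Hmox1*) and 1 to 2 with 1 library left out, *Hmox1* being joined by *Cp* without WT F1, by *Tfrc* without *LC3b-/-* F3 and by *Trf* without *LC3b-/-* M. Of the other iron genes 12 were called with DESeq2, 1 with sex as a covariate (*Nqo1*), 2 in females (*Ltf*, *Alox15*) and 0 to 3 with 1 left out (3 without *LC3b-/-* M: *Lcn2*, *Ltf*, *Alox15*). Over all genes 1831 were called with DESeq2, 124 with voom, 78 without a filter, 197 with sex as a covariate, 96 in females and 11 to 485 with 1 left out (485 without *LC3b-/-* M, 215 without WT F1, 11 without *LC3b-/-* F3). *Nqo1*, *Lcn2*, *Steap4*, *Slc39a8* and *Lrp2* were named after their values were seen. The difference in the log2 *Fth1* to *Ftl1* ratio was −0.054 in females and −0.21 to 0.30 with 1 left out, and that of *Tfrc* to *Fth1* 0.062 in females and −0.51 to 0.10. For *Cp* to *Heph* it stayed above 0, at 0.39 (without WT M1) to 0.95 with 1 left out. The cause of these shifts was not tested.

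Mouse numbers F1 and F3 occur in both genotypes, and no source says what they share. Deviations from the group means correlated at 0.146 and 0.243 in these pairs. With the number as a replicate block in edgeR 0 genes were called, and of the iron genes *Trf* alone had an unadjusted p under 0.05. F2, M1 and M occur in a single library each, so that contrast rests on the F1 and F3 pairs alone. It therefore says little about how stable the other results are. With 7 libraries, intervals of most iron genes include a 1.5-fold change, and *Slc40a1* rests on 30 to 157 counts.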

Other observations

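Hemoglobin transcripts, which mark blood, were present in every library. *Hba-a1* ranged from 68.7 to 215 CPM in WT and from 86.8 to 257 CPM in *LC3b-/-*, and *Hbb-bs* from 54.7 to 163 and from 62.1 to 195 CPM. Summed erythroid markers were highest in *LC3b-/-* F1 (653 CPM) and lowest in WT F1 (179 CPM), which was not the order of *Hmox1*. Hepcidin (*Hamp*), the hormone that removes ferroportin from the cell surface, had 0, 8, 0 and 1 counts in WT and 8, 18 and 5 counts in *LC3b-/-*, libraries in the order given above. It was removed by the filter on low counts, and DESeq2, run without that filter, gave a log2 fold change of 1.73 (adjusted p = 0.514). Mitochondrial ferritin (*Ftmt*) had 0 counts in all 7 libraries, which at this depth allows up to 0.0752 to 0.124 CPM.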
